A study of Mus musculus with 60 samples.

Results

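The Bex, Tceal, Gprasp and Armcx cluster of the mouse X chromosome was examined gene by gene. Its 10 genes are Armcx4, Armcx1, Armcx3, Armcx2, Gprasp1, Gprasp2, Tceal8, Bex1, Wbp5 and Morf4l2, in chromosomal order, out of 14383 genes in the data and 490 on the X. They were chosen by the measured share of the allele on the chromosome carrying an Xist transgene, which fell strongly upon doxycycline in these same libraries, with no fixed threshold. That loss, and the total levels of the same libraries, are therefore given as a description, without a test. All 10 genes matched the RefSeq annotation of GRCm38.p6, where they lie on chromosome X between 134685650 and 136743686, a stretch of 2.06 Mb. Wbp5 is named Tceal9 there.

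The data are RNA-seq libraries of ESC clones from the F1 2-1 female line, in which 1 X chromosome is 129/Sv and the other Cast/Ei, so that reads over polymorphisms can be given to an allele. All clones carry a doxycycline-responsive Xist transgene, and each line is 1 clone. ESCs were kept in 2i and LIF, and were untreated or given doxycycline for several days. In Tg-E clones 87 and 68, with a normal karyotype, the promoter of the endogenous Cast Xist gene was replaced by the inducible one. Tg-X clones 85, 86, 109 and 190 carry the transgene on the Cast X. In Tg-X;8, with clones 339, 267 and 203b, it lies on the fusion of X and 8, whose X part is 129. By the study its site is in chromosome 8 sequence in clones 267 and 203b and was not determined in clone 339. All Tg-X and Tg-X;8 clones have the t(X;8) karyotype, with partial trisomy of chromosome 8 and partial monosomy of the X. Tg-12 clones 55, 228 and 273 carry the transgene on chromosome 12 and an additional copy of that chromosome. Clone 160 is labelled as an X clone but listed by the study among the Tg-12 clones, and was kept apart. Clones 267 and 160 have a Tsix-Stop allele on the 129 X. Clone 55 was measured in ESCs and in neurons differentiated from them, each without and with doxycycline, with 2 libraries per group. Its neuron libraries carry the numbers 20 and 38 and its ESC libraries the number 38.

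Of 60 libraries 52 could be assigned, 48 from ESCs and 4 from neurons. ESC libraries held 731374 to 5830149 allele-specific reads and neuron libraries 7068712 to 10698003. Xist was listed at 233 to 711 CPM in treated Tg-12 libraries and at 570 to 2465 CPM in treated Tg-X libraries, against at most 140 CPM in untreated Tg-X libraries. CPM here relate the reads counted on a gene to those on the 4752 genes listed in all 52 libraries, with TMM scaling. In 19 libraries a smaller part of the gene reads was allele-specific (27.9 to 30.5%) than in the other 33 (32.8 to 35.7%), and 13 of the 18 such ESC libraries were treated. The labels do not say what separates these sets, and values without the lower set are given where they differ.

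As background, this stretch of the X holds families of genes that arose by duplication and are found in placental mammals. Bex genes encode small adaptor proteins best known from neurons, and Tceal genes encode relatives of transcription elongation factor S-II. Gprasp proteins bind G protein-coupled receptors and direct them to lysosomes, and Armcx proteins are armadillo-repeat proteins, several of them on the outer membrane of mitochondria. Xist RNA coats the chromosome that produces it and silences most of its genes.

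Sequences at the start sites are shown because several genes of the cluster share a pair of short elements there, which the choice of genes did not use. The pair was noticed by reading the promoters of the cluster and was then searched on both strands as TGACG, a gap of 7 bases and CANGTGA, in RefSeq windows of 250 bases before to 50 bases after each start. It was found at 4 of the 9 genes with a window (all but Armcx3), each time on the strand of the gene. In the following 30-base stretches of GRCm38.p6, 5′ to 3′ on the gene's strand, capitals mark the TGACG and CANGTGA parts.
Armcx1, chrX:134717918-134717947, plus strand: actggTGACGtgcccctCACGTGAgccgaa
Tceal8, chrX:136172222-136172251, minus strand: attgaTGACGcgatcctCACGTGAccagca
Bex1, chrX:136215504-136215533, minus strand: gcttcTGACGcaagtggCACGTGActagcc
Wbp5, chrX:136245071-136245100, plus strand: actggTGACGtagatctCATGTGAccagga

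Each pair lay next to the annotated start, its first base at -15 in Armcx1 and Bex1, at -4 in Wbp5 and at 6 in Tceal8. The same pair was found in 16 of 32851 windows of the genome (0.0487%), 12 of them among 1223 windows on the X. Most of these X windows belong to the cluster and the relatives named next, with 2 windows each for Tceal3 and Tceal5. Since the pattern was written from promoters of the cluster, these counts do not measure an enrichment. Among 11 relatives with a window in the same stretch it was present in 5, namely Bex4, Armcx6, Tceal3, Tceal5 and Tceal6. The 30 bases of Bex4 were identical to those of Bex1. Bex2, Ngfrap1, Armcx5, Bhlhb9, Tceal1 and Tceal7 did not hold the pair. Its parts are common on their own. TGACG occurred in 20.8% of all windows and at 7 of 9 genes of the cluster, and CACGTG, which 3 of the 4 pairs contain, occurred in 7.15% of windows and at 5 of 9 genes. Armcx2, Gprasp2, Gprasp1, Armcx4 and Morf4l2 did not hold the spaced pair in their windows. Of these, Armcx4 and Morf4l2 held both TGACG and CACGTG, and Gprasp1 held TGACG. A match describes the sequence and was not tested as a binding site.

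Not all 10 genes could be followed. Armcx1, Gprasp1, Gprasp2, Tceal8, Bex1 and Wbp5 were listed in all 52 libraries, Armcx4 in 45, Morf4l2 in 41, Armcx2 in 36 and Armcx3 in 9. A gene is listed only with enough allele-specific reads, and the smallest number listed was 8, so a gene that is not listed may still be expressed. The median number of allele-specific reads in ESC libraries was 559 for Bex1, 453.5 for Gprasp1 and 362 for Wbp5, but 38 for Armcx2 and 17 for Morf4l2. Armcx3 was listed in 1 of 32 ESC libraries of clones with a transgene on the X or on the fusion of X and 8, and no loss could be computed for it. In the annotation Gprasp1 overlaps Armcx5, Gprasp2 overlaps Bhlhb9, Morf4l2 overlaps BC065397, Armcx3 overlaps Armcx6, Armcx4 overlaps B230119M05Rik and Bex1 overlaps LOC115489115. Whether counting used the strand is not stated, so reads of these genes cannot be told apart from those of the overlapping ones.

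In untreated ESCs the level per kilobase of exon was highest for Bex1, with a mean of 847 ± 191 CPM per kb (SD, n = 24 libraries). Wbp5 (490 ± 123, n = 24) and Morf4l2 (474 ± 77.3, n = 21) followed and did not differ beyond their spread. Tceal8 came next with 68.7 ± 19.6 CPM per kb, then Gprasp1 with 43.5 ± 7.73 and Armcx1 with 31.5 ± 11.3 (SD, n = 24 each), and Gprasp2 had a median of 17.6 CPM per kb and at most 25.5 (n = 24). Neighbours among these 4 genes overlapped in their ranges. Armcx2 had a median of 8.63 CPM per kb in the 14 libraries listing it, Armcx4 8.34 in 21 and Armcx3 11.7 in 3, and these 3 could not be told apart.

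Without doxycycline most of the cluster was expressed from both alleles. The Cast/all ratio, the fraction of allele-specific reads from Cast, had a median over 24 untreated ESC libraries of 0.541 for Bex1, 0.532 for Wbp5, 0.515 for Armcx1 and 0.474 for Tceal8. It was above 0.5 in all 24 libraries for both Gprasp genes, with 0.505 to 0.640 for Gprasp1 and 0.512 to 0.706 for Gprasp2. Morf4l2 reached medians of 0.583 in Tg-X and 0.772 in Tg-X;8 libraries, on 8 to 72 reads.

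Upon doxycycline the transgene allele of Bex1, the gene with the highest level per kilobase of exon, lost reads in all 8 clones with both treatments. In Tg-E its Cast/all ratio was 0.501 and 0.516 in the untreated libraries of clone 87, 0.187 and 0.239 in the treated ones, and 0.194 in the treated library of clone 68 (226 of 1166 reads, 95% Wilson interval 0.172 to 0.218, counting error only). In Tg-X it ran from 0.473 (median 0.520) to 0.550 in 8 untreated libraries and from 0.235 (median 0.288) to 0.323 in 8 treated ones. In Tg-X;8, where the transgene lies on the 129 allele, it rose from between 0.487 and 0.611 in 6 untreated libraries to 0.817 in clone 203b, 0.842 and 0.799 in clone 267 and 0.785 and 0.784 in clone 339. Treated and untreated libraries did not overlap in any of the 3 categories.

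Tceal8 showed the lowest ratios. In clone 87 its Cast/all ratio was 0.473 and 0.475 untreated and 0.0270 and 0.0612 treated, and it was 0.0599 in clone 68 (13 of 217 reads, 95% Wilson interval 0.0353 to 0.0998). Tg-X libraries had 0.328 to 0.532 (median 0.457) untreated and 0.0763 to 0.300 (median 0.221) treated. Treated Tg-X;8 libraries had 0.650 in clone 203b, 0.811 and 0.838 in clone 267 and 0.833 and 0.808 in clone 339, all above the 6 untreated ones (0.443 to 0.570). The library of clone 203b rests on 40 reads and stands apart from the other 4.

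Wbp5, a small protein of the Tceal family first found by binding to WW domains, shifted in the same direction with less difference between categories than Tceal8. Its ratio was 0.535 and 0.556 in untreated and 0.233 and 0.329 in treated clone 87, and 0.235 in clone 68. In Tg-X it was 0.494 to 0.546 (median 0.518) untreated and 0.267 to 0.343 (median 0.303) treated. In treated Tg-X;8 libraries it lay between 0.700 and 0.792, above the untreated range of 0.537 to 0.603.

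The Armcx genes encode proteins of which Armcx1 and Armcx3 are known for mitochondrial transport in axons. Armcx1 had Cast/all ratios of 0.464 and 0.532 in untreated and 0.186 and 0.329 in treated clone 87. In Tg-X libraries it fell from 0.462 to 0.526 (median 0.481) to between 0.150 and 0.338 (median 0.313), and in Tg-X;8 libraries it rose from 0.421 to 0.592 to between 0.649 and 0.867. Armcx2 was listed in 1 untreated library of clone 87 at 0.457 and in both treated ones at 0.146 and 0.176. In treated Tg-X;8 libraries it was listed in 3 of 5, at 0.909 in clone 267 and 0.783 and 0.852 in clone 339, on 22 to 27 reads. In Tg-X its ranges overlapped, with 0.30 to 0.609 in the 5 untreated and 0.12 to 0.40 in the 6 treated libraries listing it. Scaled reads of its transgene allele were higher with doxycycline in clones 86 and 109, by 0.31 and 0.58 on the log2 scale, where 10 to 79 reads per library covered it. Armcx4 was 0.503 and 0.458 in untreated and 0.106 in the treated library of clone 87 that listed it. Its ranges overlapped between treatments in Tg-X (0.281 to 0.444 and 0.133 to 0.467) and in Tg-X;8 (0.314 to 0.690 and 0.589 to 0.889), on 14 to 121 reads.

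Gprasp1 and Gprasp2, the receptor-sorting pair, had mean losses in Tg-X of 0.139 and 0.0868, with that of Armcx4 (0.132) between them. In clone 87 Gprasp1 went from 0.590 and 0.607 to 0.364 and 0.421, and in Tg-X from 0.545 to 0.613 (median 0.572) to between 0.377 and 0.488 (median 0.448). In Tg-X;8 it went from 0.553 to 0.640 to between 0.731 and 0.746, the narrowest treated range of the 6 genes listed throughout. Gprasp2 overlapped between treatments in Tg-X, with 0.544 to 0.651 (median 0.589) untreated and 0.404 to 0.633 (median 0.511) treated. In Tg-X;8 its treated libraries, from 0.780 to 0.887, lay above the untreated ones, from 0.512 to 0.706.

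Of the 6 genes listed in every library, all but Gprasp2 had each treated Tg-X library below each untreated one, and 24.6% of 138 X genes did. In Tg-X;8 all 6 had each treated library above each untreated one, against 16.1% of 155 X genes. Since the genes were chosen for this contrast, nothing is read from these shares.

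**Figure D1:**
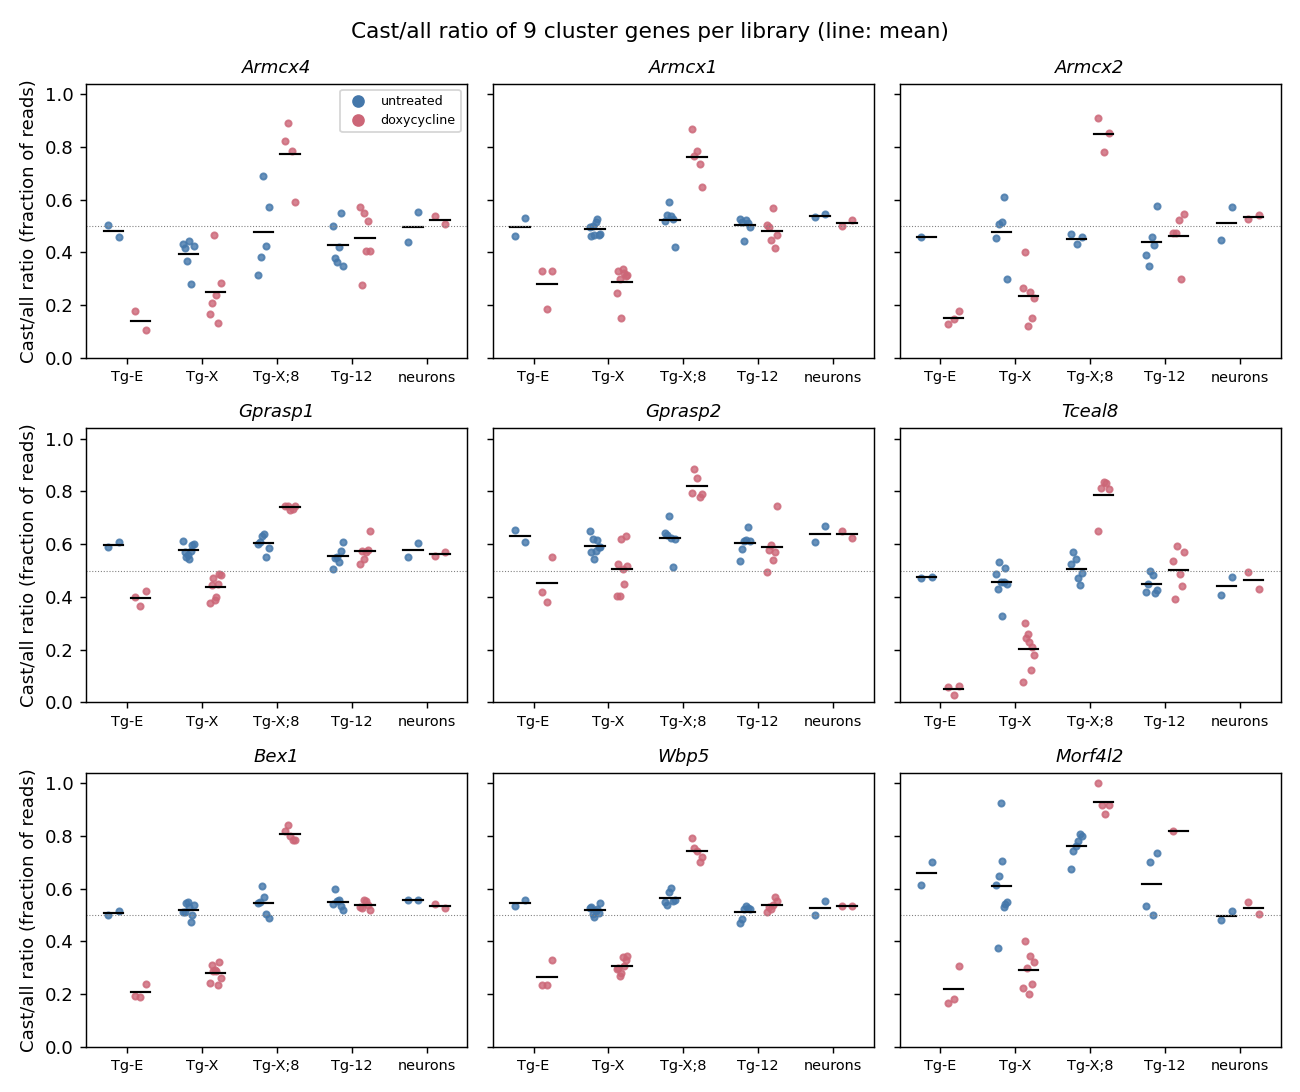
Cast/all ratio (fraction of allele-specific reads from Cast) of 9 genes of the cluster, 1 point per library listing the gene, with the mean as a line, for ESCs of the 4 categories and for neurons of clone 55, untreated (blue) or with doxycycline (red). Treated Tg-E and Tg-X libraries lie below and treated Tg-X;8 libraries above the untreated ones for Bex1, Wbp5 and Tceal8, while Tg-12 ESCs and neurons stay near 0.5. Armcx3 is left out because it was listed in 9 libraries.

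Morf4l2 encodes a chromatin protein related to Morf4l1, and few of its reads covered a polymorphism. In clone 87 it had 24 of 39 and 7 of 10 Cast reads untreated, and 2 of 11 and 4 of 13 treated. In treated Tg-X;8 libraries the ratio was 0.882 to 1.00 in the 4 libraries listing it, against 0.674 to 0.808 in the 6 untreated ones. In Tg-X its ranges overlapped, with 0.375 to 0.923 in 8 untreated and 0.20 to 0.40 in the 7 treated libraries listing it. The mean over pairs fell in each of the 4 Tg-X clones, but 1 of the 2 pairs of clone 109 went the other way, with 0.375 untreated and 0.40 treated. The depth was 9 to 51 reads in treated libraries.

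The loss was expressed as the Δ ratio, the untreated minus the treated Cast/all ratio of libraries with the same replicate number, with the sign turned where the transgene is on 129. Over the 8 clones with both treatments, the mean Δ ratio of Bex1 was 0.256 ± 0.0264 (SD over clones), from 0.229 in clone 86 to 0.296 in clone 87. This was the smallest spread among the 8 genes with a value in every clone. Tceal8 had the highest mean with 0.274 ± 0.103, followed by Morf4l2 with 0.257 ± 0.108, and these means lie closer together than their spread over clones. Armcx1 had 0.224 ± 0.0523, Armcx4 0.219 ± 0.151 and Wbp5 0.208 ± 0.0428. Gprasp1 with 0.146 ± 0.0358 and Gprasp2 with 0.137 ± 0.0686 were lowest. Among the 157 X genes with a value in all 8 clones and an untreated ratio between 0.2 and 0.8, Tceal8 ranked 1, Bex1 2, Armcx1 5, Armcx4 6 and Wbp5 10, whereas Gprasp1 ranked 33 and Gprasp2 36. Morf4l2 was left out of this ranking, since its untreated ratio averaged 0.804 in clone 339, so that the rank of Bex1 does not count it.

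The median Δ ratio of the cluster was 0.296 in Tg-E, 0.210 in Tg-X and 0.251 in Tg-X;8, each over 9 genes. With the higher-share libraries alone it was 0.227 in Tg-E, on 1 pair of libraries and 7 genes, 0.210 in Tg-X and 0.214 in Tg-X;8. That set holds no treated library of clone 203b, and 1 treated library of each other Tg-X and Tg-X;8 clone. A mean Δ ratio of at least 0.1 was reached by 9 of 9 genes in Tg-E, where 74.2% of X genes with a value did so. Among genes with a value in every clone of the category, it was reached by 7 of 8 in Tg-X, against 55.6% of X genes, and by 8 of 8 in Tg-X;8, against 30.5%. Armcx2, with values in 3 and 2 of these clones, also reached it in both. These shares only describe the choice of genes.

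**Figure D2:**
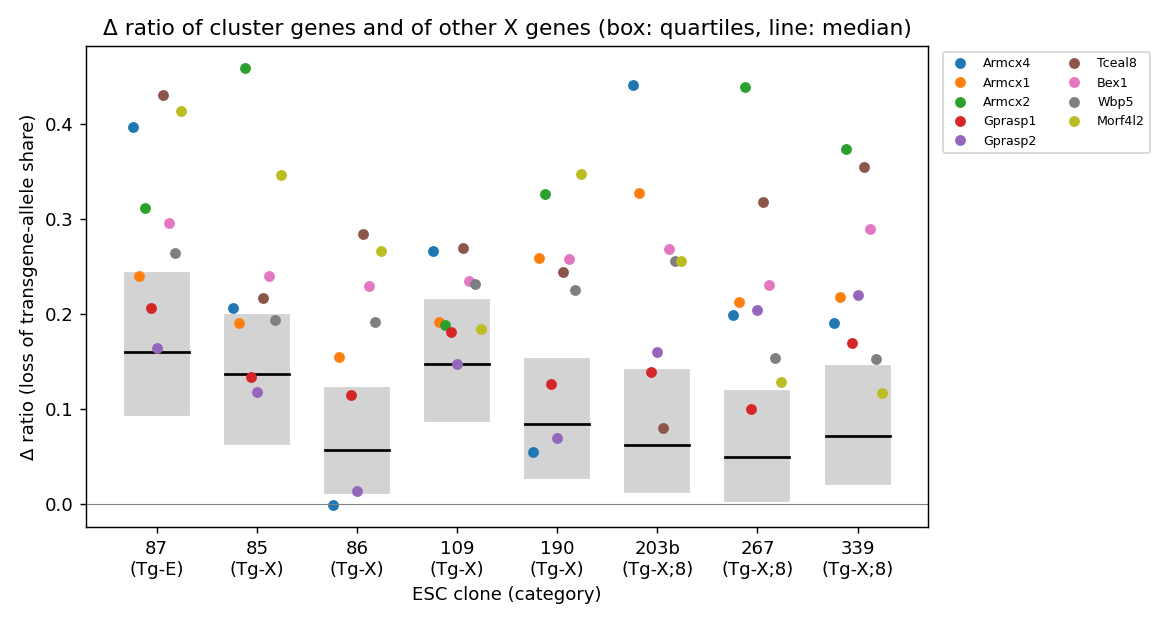
Δ ratio (loss of the share of the transgene allele, a fraction) of 9 genes of the cluster in 8 ESC clones, coloured by gene, beside the quartiles (box) and median (line) of other X genes with an untreated ratio of 0.2 to 0.8. Bex1 keeps to 0.229 to 0.296 in all 8 clones, while the median of other X genes runs from 0.0497 in clone 267 to 0.160 in clone 87.

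The gap between the cluster and the rest of the chromosome varied from clone to clone. The median of 180 other X genes was 0.147 in clone 109 and that of the cluster 0.192, a gap of 0.0444. In clone 190 the values were 0.0842 and 0.244, a gap of 0.160, and in clone 203b they were 0.0618 and 0.256, a gap of 0.194. The treated library of clone 203b was of the lower-share set and its untreated ones were of the higher, so that treatment and set cannot be told apart there. In clone 86 the median of other X genes was 0.0563, and the genes of the cluster ranged from -0.00136 for Armcx4 to 0.284 for Tceal8.

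Clone 86 is the one whose transgene lies close to the cluster, about 126 kb from Armcx4 and 1654 kb from Bex1. Armcx4 was the nearest gene, and its Δ ratio there rests on 1 pair of libraries with 64 and 46 allele-specific reads. Their Cast/all ratios were 0.281 untreated and 0.283 treated. The other untreated library had 0.425 on 40 reads, and the treated library of the same number did not list the gene. With both untreated libraries, scaled reads of its transgene allele changed by -0.78 on the log2 scale. Armcx1, at 158 kb, lost 0.155 in clone 86 (0.153 and 0.156 in the 2 pairs), its lowest value among 8 clones. Gprasp2 lost 0.0136, with -0.0444 and 0.0716 in its 2 pairs, and Gprasp1 lost 0.115. Tceal8, Bex1 and Wbp5, at 1609 to 1685 kb, lost 0.284, 0.229 and 0.191. The cluster lies 31.2 to 33.2 Mb from the Xist locus, the site used in Tg-E, and 33.2 to 35.3 Mb from the transgene of clone 190.

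Along the chromosome, the Gprasp pair in the middle of the stretch had lower means over the 8 clones than the genes of the cluster on either side. A further 18 genes are listed between the first and the last gene of the cluster, 2 of them in no assigned library, and 6 have a Δ ratio in all 8 clones. Their means ran from 0.123 for Armcx5, which overlaps Gprasp1, to 0.205 for Arxes1, with a median of 0.157. Bhlhb9, which overlaps Gprasp2, had 0.127, and Bex2 had 0.155, from 0.0298 to 0.273 over clones. BC065397, which overlaps Morf4l2, had 0.179. Ngfrap1, also known as Bex3, had a value of 0.189 in clone 87 alone, and Tceal1, Tceal3, Tceal5, Tceal6, Tceal7 and Armcx6 had none. The nearest listed gene before the cluster was Hnrnph2, 78.6 kb away, with a mean Δ ratio of 0.150. On the other side the nearest gene with values in 8 clones was Prps1, 3731 kb away, with 0.157. The autosomal relatives Morf4l1 on chromosome 9 and Armc10 on chromosome 5 had means of -0.000454 and 0.00387.

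**Figure D3:**
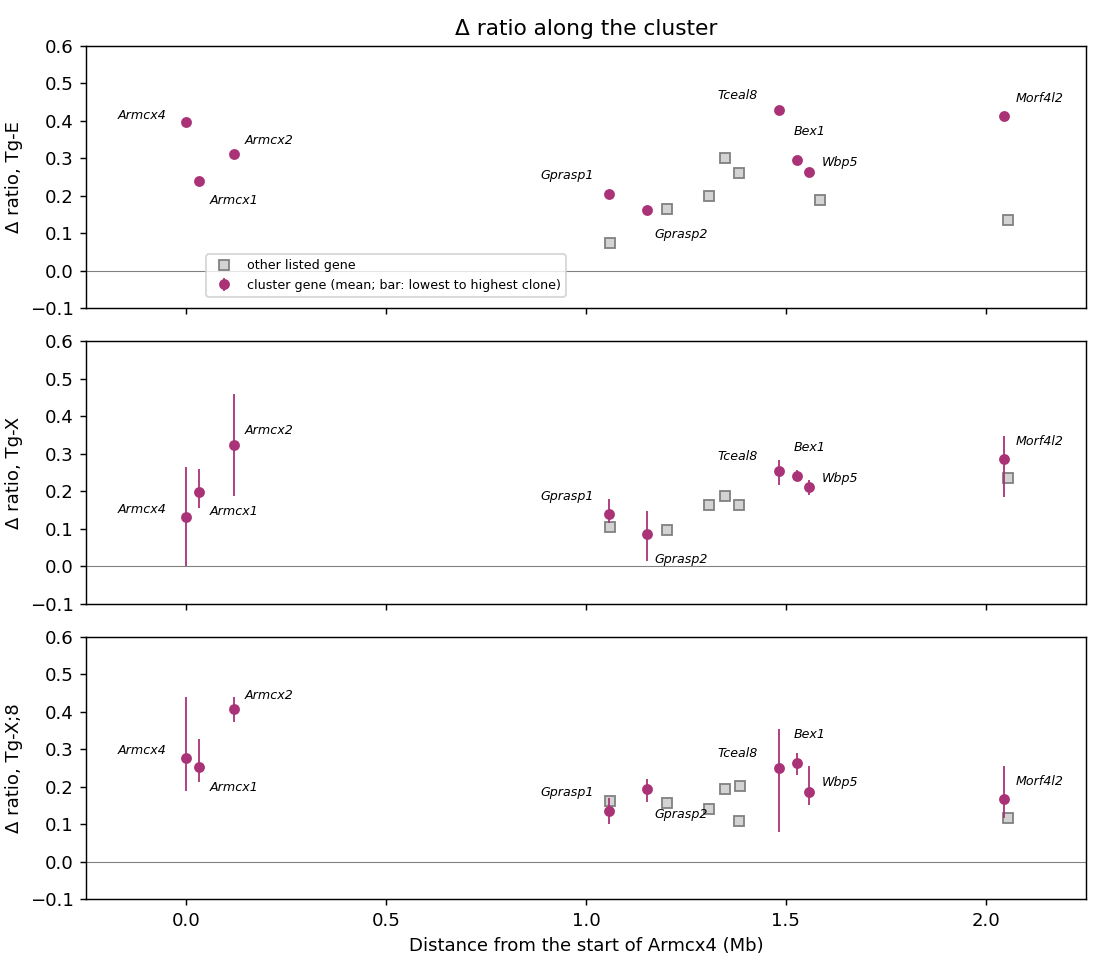
Mean Δ ratio (fraction) against the distance from the start of Armcx4 in Mb in the 3 categories of clones with an X-linked transgene. Circles are genes of the cluster with bars from the lowest to the highest clone, and squares are other listed genes of the stretch. Gprasp1 and Gprasp2, near 1.1 Mb, lie below Tceal8 and Bex1 in Tg-E and Tg-X.

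The X genes outside the cluster whose Δ ratios over the 8 clones were most like the mean of its genes were Fhl1, a LIM domain gene, Acsl4, an acyl-CoA synthetase gene, and Sh3bgrl. Their mean absolute difference from the profile of the cluster was 0.0338, 0.0380 and 0.0502, against a median of 0.135 over the 150 X genes compared. Their mean Δ ratios were 0.191, 0.204 and 0.201. None of them lies between the first and the last gene of the cluster.

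Levels were then followed on each allele. For the 6 genes listed in all libraries, allele reads were scaled to the allele-specific reads of autosomal genes outside chromosomes 8 and 12. In bulk libraries, fewer cells expressing an allele and less RNA per cell cannot be told apart. The transgene allele of Bex1 changed by -2.08 ± 0.28 on the log2 scale (SD over 8 clones, from -2.47 to -1.73), and the other allele by -0.42 ± 0.34, below 0 in 7 of 8 clones. The transgene allele of Tceal8 changed by -2.12 ± 0.77 and the other allele by -0.11 ± 0.29. For Wbp5 the values were -1.69 ± 0.50 and -0.40 ± 0.32, with the other allele below 0 in 8 of 8 clones.

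Armcx1 changed by -1.91 ± 0.93 on the transgene allele and -0.45 ± 0.53 on the other, and the lowest value of the transgene allele, -3.99, came from clone 203b with 1 treated library. The Gprasp pair changed less, with -0.73 ± 0.27 and 0.16 ± 0.25 for Gprasp1 and -1.12 ± 0.42 and -0.12 ± 0.49 for Gprasp2. For these 6 genes the transgene allele was lower with doxycycline in 8 of 8 clones. For 150 other X genes the median change per clone ran from -0.90 to -0.22 on the transgene allele and from -0.07 to 0.27 on the other.

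**Figure D4:**
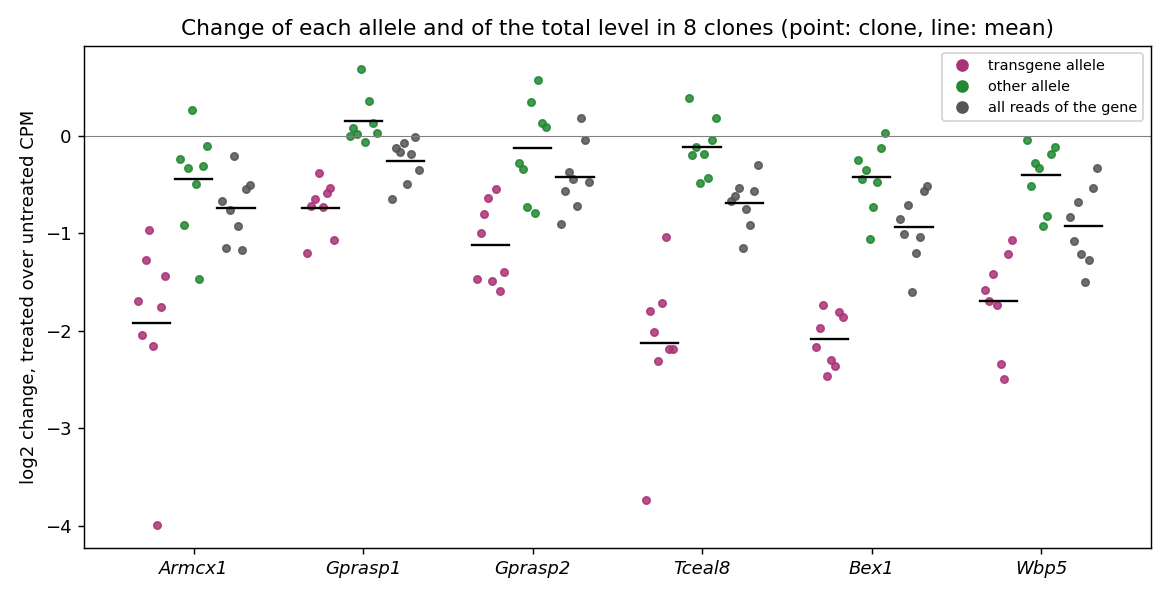
Log2 change of CPM with doxycycline for the transgene allele, the other allele and all reads of the gene, for the 6 genes listed in every library, 1 point per clone (8 clones) with the mean as a line. The transgene allele of Bex1 lies between -2.47 and -1.73, and the other allele of Bex1 and Wbp5 lies mostly below 0.

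The total level of Bex1 fell with its allele. It was 602 and 799 CPM in untreated clone 87 and 387 and 383 CPM in treated clone 87. In Tg-X it was 683 to 1218 CPM (median 724) untreated and 302 to 471 CPM (median 355) treated, and in Tg-X;8 it was 641 to 803 CPM untreated and 385 to 522 CPM treated. The groups did not overlap in either category. Wbp5 behaved alike, with 407 to 692 CPM (median 529) untreated and 145 to 327 CPM (median 245) treated in Tg-X, and 417 to 540 CPM against 215 to 378 CPM in Tg-X;8.

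Bex1 and Wbp5 were the 2 of 6 genes whose total levels did not overlap between treatments in Tg-X, where 13.8% of 138 X genes did not, and likewise in Tg-X;8, where 14.2% of 155 did not. Over 8 clones the log2 change of the total was -0.94 ± 0.36 for Bex1, -0.93 ± 0.40 for Wbp5, -0.74 ± 0.33 for Armcx1 and -0.68 ± 0.26 for Tceal8, below 0 in 8 of 8 clones for each. It was -0.44 ± 0.16 for Morf4l2, also below 0 in 8 of 8 clones, -0.42 ± 0.35 for Gprasp2, below 0 in 7 of 8, and -0.25 ± 0.22 for Gprasp1, below 0 in 8 of 8. For the less covered Armcx4 it was -0.24 ± 0.34 in 8 clones and for Armcx2 -0.12 ± 0.29 in 7. The median over the cluster was -0.66 in Tg-E, -0.52 in Tg-X and -0.46 in Tg-X;8, and taken from allele-specific reads in place of all reads it was -0.70, -0.79 and -0.71. Medians of 150 other X genes ran from -0.37 in clone 87 to -0.11 in clone 267.

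Tg-12 clones show the cluster with Xist induced from another chromosome, a contrast the choice of genes did not use. Bex1 had Cast/all ratios of 0.520 to 0.597 (median 0.549) in 6 untreated and 0.519 to 0.559 (median 0.534) in 6 treated libraries. Wbp5 had 0.469 to 0.536 and 0.512 to 0.569, and Tceal8 had 0.414 to 0.50 and 0.390 to 0.592. The ranges overlapped for each of these genes.

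By the quasi-likelihood test of edgeR, adjusted by Benjamini-Hochberg over 5167 genes, none of the 7 genes listed in all 12 libraries changed its allelic share, and none had an unadjusted p under 0.05. Over all genes 0.0774% were called. The largest shift was that of Tceal8, 0.31 ± 0.21 (SE) on the log2 scale of Cast over 129 reads, with an adjusted p of 0.952. DESeq2 also called none of the 7. In total expression, edgeR called none of the 7, with none at an unadjusted p under 0.05, and 0.117% of 5144 genes. DESeq2 called none either. Log2 changes ran from -0.30 ± 0.15 for Wbp5 (adjusted p = 0.593) to 0.12 ± 0.12 for Gprasp1 (adjusted p = 0.843).

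Doxycycline in neurons of clone 55 gave ratios close to those of untreated neurons. Bex1 had 0.555 in both untreated and 0.541 and 0.525 in the treated libraries, and Wbp5 had 0.501 and 0.552 untreated and 0.534 and 0.534 treated. Genes with few reads in ESCs were well covered here. Armcx2 had 0.448 and 0.571 untreated and 0.527 and 0.542 treated on 601 to 975 reads, and Armcx3 had 0.522 and 0.584 untreated and 0.667 and 0.549 treated on 63 to 154 reads. Morf4l2 had 0.480 and 0.514 untreated and 0.548 and 0.503 treated, and no ESC library of clone 55 listed it for comparison.

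None of the 7 genes tested changed its allelic share with doxycycline in neurons by edgeR's quasi-likelihood test or by DESeq2, none had an unadjusted p under 0.05, and 0.0295% of 6777 genes were called. Shifts ran from -0.16 ± 0.17 for Armcx1 to 0.15 ± 0.27 for Armcx4 on the log2 scale (adjusted p = 1.00 for each). For total expression the counts were also 0 of 7, with 0% of 6748 genes called by edgeR, 110 genes at an unadjusted p under 0.05, none of them in the cluster, and 1 gene called by DESeq2. The effect of doxycycline was compared between neurons and ESCs with an interaction term, and 0% of genes differed in expression or in allelic share by edgeR. At an unadjusted p under 0.05 there were 60 and 262 genes, none of them in the cluster, and DESeq2 called 0 and 1 gene. The largest interaction in the cluster was that of Bex1 expression, 1.00 ± 0.53 (SE) on the log2 scale (edgeR adjusted p = 1.00).

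Xist was listed at 721 and 1427 CPM in untreated neurons and at 1941 and 2879 CPM in treated ones. The neuron libraries were checked against markers. The summed level of 10 neuronal markers was 152 to 1137 CPM in neurons, with 6 to 9 listed and Stmn2 in none, and 51.7 to 76.9 CPM in clone 55 ESCs. That of 8 ESC markers was 2187 to 4174 CPM in neurons and 9131 to 13942 CPM in ESCs, with all 8 listed in every library. Of 9 glial and progenitor markers 4 to 8 were listed in neurons, at 189 to 665 CPM in sum. With doxycycline in neurons, all 8 ESC markers had positive log2 changes, from 0.14 for Sox2 to 0.90 for Tfcp2l1. Tubb3 changed by -1.38 and the glial and progenitor marker Slc1a3 by -2.17, and edgeR called none of these markers. The part of these cells, or of this difference with treatment, in the results on neurons was not tested.

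Levels in untreated neurons were compared with untreated ESCs of clone 55. Bex1 had 415 and 328 CPM in neurons and 540 and 1184 CPM in ESCs, so that both neuron libraries were lower. Armcx4 had 149 and 183 CPM in neurons and 104 and 64.8 CPM in ESCs, and both neuron libraries were higher. Armcx1 had 49.1 and 52.0 CPM against 66.7 and 71.3 CPM. For Wbp5, Tceal8, Gprasp1 and Gprasp2 the libraries overlapped. The share of all genes whose libraries lay apart is not given. With 2 libraries per group, nothing is read from the separation itself. The difference was -1.28 ± 0.38 (SE) on the log2 scale for Bex1 (adjusted p = 0.0528), 0.92 ± 0.28 for Armcx4 (adjusted p = 0.0572) and -0.51 ± 0.22 for Armcx1 (adjusted p = 0.139) by edgeR's quasi-likelihood test.

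None of 7 genes passed the threshold of 0.05, while 15.5% of 6748 genes were called. An unadjusted p under 0.05 was found for 3 of the 7, beside 2355 of all 6748. DESeq2 called 2 of 7, Bex1 (-1.26, adjusted p = 0.00722) and Armcx4 (0.93, adjusted p = 0.0185), and 25.6% of all genes. The edgeR calls rest on single ESC libraries. Without untreated replicate 1 of clone 55 both genes passed, with -1.76 for Bex1 (adjusted p = 0.00259) and 1.26 for Armcx4 (adjusted p = 0.0107). Without untreated replicate 2, which had the high Bex1 level and a lower share of allele-specific reads, the values were -0.58 for Bex1 (adjusted p = 0.227) and 0.62 for Armcx4 (adjusted p = 0.204). The remaining 4 genes had differences between -0.09 for Wbp5 and 0.48 for Gprasp2.

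The genes that could not be tested are those with the lowest ESC coverage. Armcx2 was listed in 2 of 4 ESC libraries at 29.7 and 33.7 CPM and in all 4 neuron libraries, at 111 and 129 CPM untreated and 97.9 and 66.0 CPM treated. Armcx3 was listed in none of these ESC libraries and at 29.4 and 46.5 CPM untreated and 25.2 and 26.6 CPM treated in neurons. Morf4l2 was at 794 to 935 CPM in the 4 neuron libraries. Neuron libraries were deeper, so that listing alone does not order the levels.

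**Figure D5:**
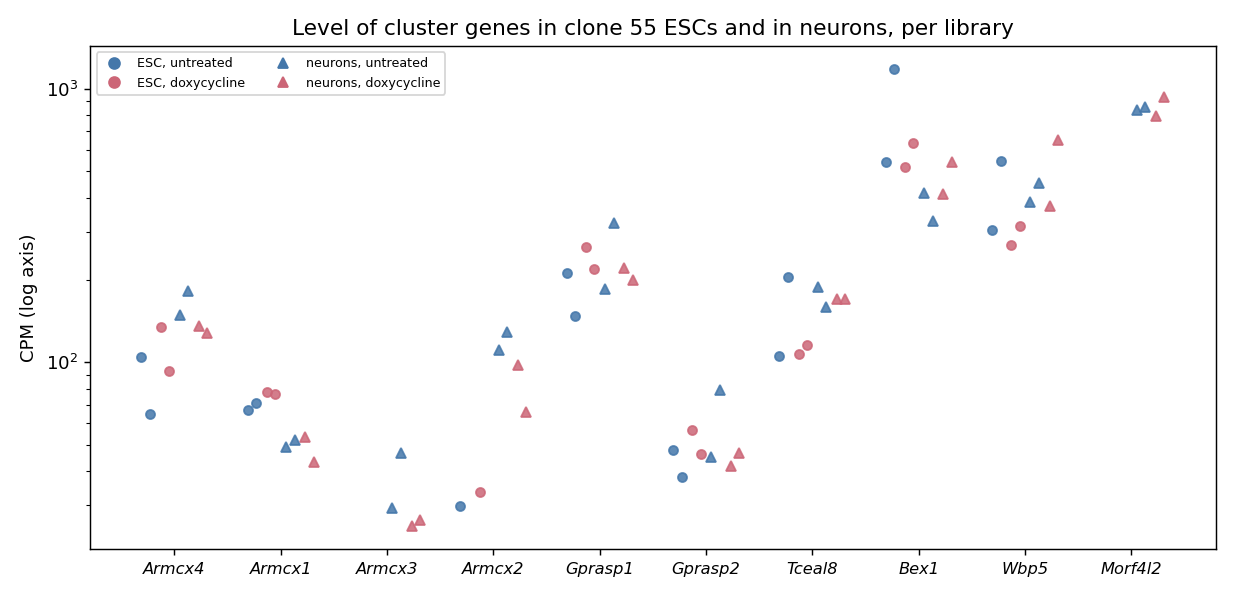
Level in CPM (log axis) of the 10 genes in clone 55 ESCs (circles) and neurons (triangles), untreated (blue) or with doxycycline (red), 1 point per library listing the gene. Bex1 is lower and Armcx4 higher in both untreated neuron libraries than in both untreated ESC libraries, and Armcx3 and Morf4l2 have no ESC point. With so few libraries per group, nothing is read from such a separation.

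The allelic share of the cluster did not move with differentiation beyond the spread of the libraries. In bulk libraries this share cannot tell expression of both alleles in a cell from expression of either allele in different cells. By the study, X inactivation is random when wild-type ESCs become neurons. The largest differences were those of Armcx1 with 0.20 ± 0.20 (SE) and of Bex1 with 0.17 ± 0.12 on the log2 scale of Cast over 129 reads. None of 7 genes passed edgeR's test, none had an unadjusted p under 0.05, DESeq2 called none, and 1.4% of 6777 genes were called by edgeR.

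Untreated clones with a Tsix-Stop allele on the 129 X were compared with untreated clones of the same karyotype, which for clone 160 is that of the study's listing. Each comparison sets a single clone against others, so that the allele cannot be told apart from other differences between clones. The p-values cover the spread between libraries. Xist was at 203 and 333 CPM in untreated clone 160, while 1 of 6 untreated Tg-12 libraries listed it, at 44.5 CPM. In clone 160 Wbp5 had Cast/all ratios of 0.615 and 0.623, above the 6 Tg-12 libraries (0.469 to 0.536). Bex1 had 0.607 and 0.613, above 0.520 to 0.597, and Tceal8 had 0.554 and 0.636, above 0.414 to 0.50. Armcx1 had 0.662 and 0.573, above 0.444 to 0.528. The ratios overlapped for Gprasp1 (0.590 and 0.619 against 0.505 to 0.607), Gprasp2 (0.630 and 0.671 against 0.537 to 0.667) and Armcx4 (0.818 and 0.40 against 0.348 to 0.549). The share of X genes lying apart in this way is not given, so nothing is read from the separation.

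The shift toward Cast in clone 160 was 0.64 ± 0.16 (SE) on the log2 scale for Wbp5 (adjusted p = 0.0757), 0.81 ± 0.29 for Tceal8 (adjusted p = 0.331), 0.69 ± 0.26 for Armcx1 (adjusted p = 0.350) and 0.36 ± 0.13 for Bex1 (adjusted p = 0.347) by edgeR's quasi-likelihood test. All 7 tested genes shifted toward Cast, with a median of 0.64, beside 0.33 for 173 other X genes and 0.01 for all genes. None of them passed at 0.05, while 1.68% of 5297 genes were called. An unadjusted p under 0.05 was found for 4 of the 7, beside 448 of all 5297. DESeq2 called none of the 7. Of the 173 other X genes 32 were called by edgeR, all toward Cast.

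In clone 267, compared with clones 203b and 339, Bex1 had 0.611 and 0.569 against 0.487 to 0.549, and Gprasp1 had 0.633 and 0.640 against 0.553 to 0.607. The shifts were 0.40 ± 0.14 (adjusted p = 0.721) and 0.32 ± 0.14 (adjusted p = 0.796) by edgeR's quasi-likelihood test. None of 7 genes passed, while 0.122% of 6554 genes were called. An unadjusted p under 0.05 was found for 2 of the 7, beside 406 of all 6554. DESeq2 called none of the 7. The median shift of the 7 genes was 0.32, beside 0.21 for 205 other X genes, of which edgeR called 3, all toward Cast. The untreated ratios of these clones also entered the loss by which the genes were chosen. The test is therefore not independent of that choice, and nothing is read from it.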

How the data were processed

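The 10 genes and all gene lists were chosen with earlier results of these data known. Per the labels and the study's methods, the authors aligned single-end reads with TopHat2 2.0.6 to 129/Sv and Cast/Ei versions of mm10, whose coordinates are those of GRCm38, and deposited for each gene the counts of Cast and 129 reads over exonic polymorphisms, the read count of the gene by HTSeq 0.6.1, and the Cast fraction of the allele-specific reads. Reads aligned uniquely were kept, and by the study's methods a minimum coverage was set per polymorphic site or, with a single site, per gene. No normalization had been applied.

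CPM used TMM factors over the 4752 genes listed in all assigned libraries, with no pseudocount. Tests across genes used edgeR 4.0.16 in R 4.3.3 (quasi-likelihood, Benjamini-Hochberg over all genes listed in every library compared). For allelic shares, each library had a column per allele and a term of its own. Log2 differences are given with SE. DESeq2 1.42.0, RLE factors, a mean count of at least 50, a replicate block, leaving out single libraries and, added after seeing the data, a term for the 2 sets of libraries were alternatives. The fits were tested on simulated data. P-values measure the spread between libraries, which may be technical. Named genes were the 10 genes, their relatives, other genes of the stretch as counts and ranges, its neighbours, the 3 X genes with the most similar Δ ratios, and Xist. Other X genes were those with an untreated ratio of 0.2 to 0.8.

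Replicate numbers pair treated with untreated libraries in the Δ ratio. For neurons the numbers name lines (r of same-numbered deviations = 0.502 for expression and 0.171 for ratios). In Tg-12 clones r ran from -0.219 to 0.686 for expression, so the numbers do not pair the libraries throughout. The 8 libraries labelled clone 292 were left out of all comparisons, since their labels and the study's samples disagree. Python 3.11.15 with matplotlib 3.10.9, scipy 1.17.1, pandas 2.3.3 and numpy 2.4.6 served for the rest.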

Additional observations from a re-analysis of the deposited data

Results flagged for a closer look

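Among 102 groups of 4 to 10 values examined, 6 held a value far from the others by Dixon's test, and chance flags about 1 in 20. In untreated Tg-X ESCs, replicate 2 of clone 109 had 1218 CPM of Bex1, with 901 CPM next and 683 CPM at the other end. In treated Tg-X;8 ESCs, clone 203b had a Cast/all ratio of Tceal8 of 0.650 on 40 reads, with the others at 0.808 to 0.838, and replicate 2 of clone 267 had 124 CPM of Tceal8, with the others at 96.6 to 102 CPM. In untreated Tg-12 ESCs, replicate 1 of clone 273 had a Cast/all ratio of Armcx1 of 0.444, with the others at 0.497 to 0.528, and replicate 2 of clone 55 had 1184 CPM of Bex1, with the others at 540 to 731 CPM. The latter library is 1 of the 2 untreated ESC libraries that neurons were compared with. In treated Tg-12 ESCs, replicate 2 of clone 55 had 33.7 CPM of Armcx2, with the others listing it at 61.5 to 67.6 CPM.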

How the results depend on the processing

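In 9 of the 10 comparisons tested, 0 genes of the cluster were called in every alternative run, with DESeq2, other filters and each library left out in turn. The exception was the level in neurons against ESCs, where DESeq2 called 2 and leaving out single libraries gave 0 to 2, with 2 without untreated replicate 1 of clone 55 ESCs. No called gene of the cluster changed sign, but medians over the 7 genes tested, none of them called in the main analysis, and single genes that were not called did. For neurons against ESCs the median log2 difference in level was 0.10, and -0.33 without untreated replicate 1 of clone 55 ESCs, and that in allelic share was 0.01, and -0.14 without untreated neuron replicate 38. For doxycycline the median in allelic share was -0.04 in neurons, 0.17 without untreated and 0.04 without treated replicate 38, and 0.08 in Tg-12, from -0.05 to 0.11 with a library left out and -0.0035 with clone 160. With the replicate block, the pairing of same-numbered libraries, 0 genes of the cluster were called for doxycycline in neurons and in Tg-12 clones, and the Δ ratios without pairing (0.296 in Tg-E, 0.210 in Tg-X and 0.256 in Tg-X;8) stayed within their spread. The median Δ ratio in Tg-E ran from 0.227 to 0.311 and the total level from -0.78 to -0.64 when a replicate was left out, and both were 0.227 and -0.78 in the libraries with the higher allele-specific share. The Δ ratio in Tg-X;8 was 0.195 with at least 50 reads, which leaves 7 genes. From allele-specific reads the total level was -0.79 in Tg-X and -0.71 in Tg-X;8. The cause of these shifts was not tested. Counts over all genes moved more. For neurons against ESCs they were 1043 in expression, 1730 with DESeq2 and 255 to 2917 with a library left out, and 95 in allelic share, with 4 to 132. For doxycycline in Tg-12 they were 6 in expression, 105 with DESeq2, 0 with the block, 1 with a term for the sets, 10 with clone 160 and 0 to 161 with a library left out, and 4 in allelic share, 2 with DESeq2, 1 with clone 160 and 1 to 10. For doxycycline in neurons they were 2 in allelic share, 38 with the block, 0 with the 4 libraries alone and 2 to 55, and 0 in expression, 1 with DESeq2 and 0 to 1. The interaction in allelic share gave 0, 1 with DESeq2 and 0 to 12. Clone 267 gave 8, 5 with DESeq2 and 3 to 9, and clone 160 gave 89 and 46 to 105. Groups of 2 libraries, and genes with under 50 allele-specific reads, limit the precision.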

Other observations

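The 8 libraries labelled clone 292 enter no comparison. Over them the Cast/all ratio of Bex1 ran from 0.511 to 0.60 (median 0.544), that of Wbp5 from 0.512 to 0.623 (median 0.582) and that of Tceal8 from 0.441 to 0.60 (median 0.511). Gprasp1 had 0.540 to 0.695 (median 0.621) and Gprasp2 0.636 to 0.734 (median 0.690). Armcx2 was listed in 6 of these libraries at 0.381 to 0.755 and Armcx3 in 4 at 0.718 to 0.766.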
